A study of Arabidopsis thaliana with 12 samples.

Results

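Basal gene expression that differs between sid2 and Col leaves was examined in plants that had received neither an inducer nor a pathogen. Of the 12 arrays in the series, 6 were used for this comparison: 3 of sid2 mock leaves and 3 of Col mock leaves, chosen by their titles. sid2 plants carried the allele sid2-2 in the Col-0 accession, and Col plants were wild type at SID2. The plants of both groups also carried DEX-MKK4DD, a transgene that puts a permanently active variant of MKK4, a MAP kinase kinase, behind a promoter that responds to dexamethasone (DEX); the line had been crossed into sid2. Leaves of plants aged 4 weeks were infiltrated with 0.1% ethanol as mock treatment and collected 24 h later, so that both groups had been infiltrated and neither had been given DEX. The other 6 arrays, 3 each of sid2 and Col leaves given 2 µM DEX, were used only where stated. Whether several plants were pooled in a sample is not given in the sources used here.

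Salicylic acid (SA) is a phenolic hormone of plant defence. In Arabidopsis most of it is made in the chloroplast from chorismate by way of isochorismate, and the enzyme of the first step, isochorismate synthase, is encoded by SID2 (also ICS1 or EDS16). SA is bound by proteins of the NPR family, which act with TGA transcription factors on genes for pathogenesis-related (PR) proteins, and it is taken out of the active pool by hydroxylation, glucosylation and methylation.

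The 6 arrays gave values for 32627 loci, with median intensities from 268 to 289.5. Arrays of the same group correlated across loci at 0.9853 to 0.9949 (Pearson's r), and same-numbered arrays of sid2 and Col at 0.9935 to 0.9971. Differences are given below as sid2 minus Col on the log2 scale, so that a negative value means a lower level in sid2. A gene was called when its adjusted p in limma was under 0.01 and its change was over 2-fold. Precision is limited by the number of arrays, 3 a group. Leaf markers were at the top of the intensity range in both groups. The median log2 level of 8 photosynthesis genes, among them RBCS1A and RCA, was 14.02 to 14.13 in the sid2 arrays and 13.97 to 14.18 in the Col arrays. Among floral and meristem genes, AP3 was at 4.03 in sid2 and 4.13 in Col and STM at 4.27 in sid2 and 4.28 in Col, while AG was brighter at 7.98 in sid2 and 8.23 in Col. The root genes disagreed in level, with SCR at 11.93 in sid2 and 12.03 in Col, PYK10 at 7.26 in sid2 and 7.91 in Col, and COBL9 (listed as SHV2) at 3.50 in sid2 and 3.46 in Col. Fewer cells of a type and less RNA per cell cannot be told apart in these leaf samples.

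SID2 was the mutated gene and was examined first. Its log2 expression level was 6.0, 6.26 and 6.12 in sid2 mock replicates 1, 2 and 3, against 10.36, 9.72 and 10.21 in the same-numbered Col mock replicates. The groups lay far apart, and each of the 6 arrays matched its label. SID2 (AT1G74710) fell by 3.97 ± 0.17 (log2, SE) in sid2, which is 15.7-fold lower than in Col (adjusted p 0.0035, lower in 3 of 3 pairs). The signal in sid2 stayed above the lower quartile of the arrays, which was 4.15 to 4.19. Where the probes lie relative to the mutation is not given in the sources used here, so this level cannot be read as a transcript level of the mutant allele.

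SID2 was the single gene called among the 32627 loci (0.00306%), with 0 called as higher in sid2. At an unadjusted p under 0.05 there were 3210 loci (9.84%), of which 1618 (4.96%) were lower and 1592 (4.88%) higher in sid2. An adjusted p under 0.05 was reached by SID2 and by WRKY51. The call of SID2 did not survive the change of most settings, and it was called in 7 of 20 alternative fits. Its adjusted p was 0.615 with all 12 arrays. With 11 arrays, leaving out the array labelled Col DEX replicate 2, it was 8.9e-06. When the replicate entered as a fixed block, SID2 had an adjusted p of 0.0175, and 0 genes were called with 12 at an adjusted p under 0.05. Without single arrays the adjusted p of SID2 lay between 0.003 and 0.0883, and without sid2 mock replicate 3 it was highest. The size of the difference hardly moved without single arrays, from −3.80 to −4.18. Without replicate pairs 1, 2 and 3 the adjusted p of SID2 was 0.158, 0.0182 and 0.288.

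PR1, the usual marker gene of SA responses, had the largest difference of all loci but was not called. Its log2 level was 5.64, 4.60 and 4.91 in the sid2 arrays, against 8.55, 9.93 and 9.78 in the Col arrays. The groups did not overlap, and the pairs differed by −2.91, −5.33 and −4.87. The difference was −4.37 ± 0.42 (SE), a 20.7-fold lower level in sid2 (adjusted p 0.0715, lower in 3 of 3 pairs). The sid2 arrays were dim for PR1, so the size and its rank depend on the scale. With 32 added to the intensities the difference was −3.45 (adjusted p 0.209), beside −3.47 for SID2. When the spread was estimated from all 12 arrays instead, PR1 was called with an adjusted p of 0.0039, and with 11 arrays, leaving out the array labelled Col DEX replicate 2, with 0.0042. Some settings lowered the adjusted p of PR1 without a call. It was 0.0264 without Col mock replicate 1, 0.0331 without replicate pair 1 and 0.0366 with limma's trend and robust options. With a common median it was 0.0546, and with quantile normalization 0.0679. Others raised it, to 0.129 with a fixed block, 0.264 with no block and 0.492 without Col mock replicate 2. Without sid2 mock replicate 3 it was 0.481, and 0.948 when tested against a 2-fold limit (treat).

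**Figure D1:**
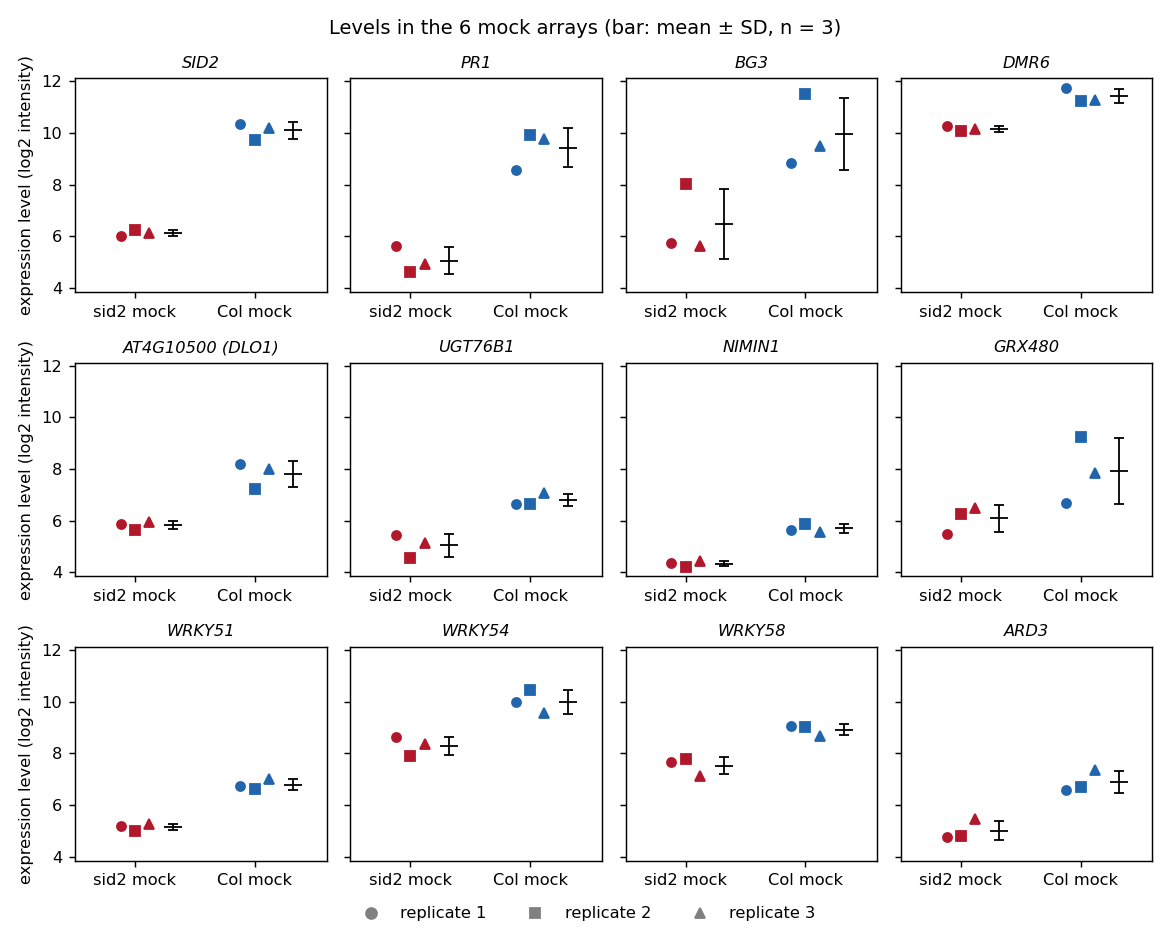
Log2 expression levels of 12 genes in the 3 sid2 mock arrays (red, left) and the 3 Col mock arrays (blue, right); symbols give the replicate number, and the bar beside the points is the mean ± SD (n = 3). In each of the 12 panels the sid2 arrays lie below the Col arrays, from a difference of −4.37 for PR1 to −1.26 for DMR6, and of these genes only SID2 was called.

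The largest differences ran mostly in a single direction. Over 2-fold lower levels in sid2 in all 3 same-numbered pairs were found for 35 loci (0.107%), and over 2-fold higher levels in all 3 pairs for 2 loci (0.00613%). These loci were picked by their values, so they carry no test beyond the fit across all loci. Smaller differences were more balanced: 6093 loci (18.7%) were lower and 5580 loci (17.1%) higher in sid2 in all 3 pairs, and the median over all loci was −0.01. The 35 loci differed by −1.14 to −4.37, and for 29 of them all sid2 arrays lay below all Col arrays, which held for 5.68% of all loci. The loci were picked on these same arrays, so this separation is largely built in and adds no evidence. Their adjusted p ran from 0.0035 for SID2 to 0.449. In Col their means ran from 5.70 for NIMIN1 to 12.11 for PCR1.

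**Figure D2:**
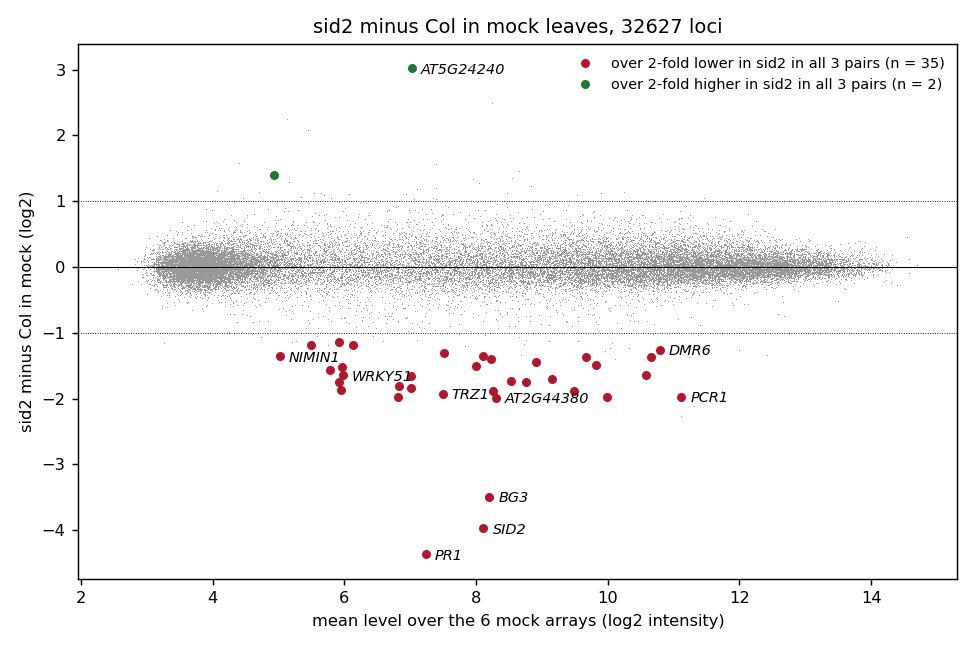
Difference between sid2 and Col in mock leaves (log2, vertical axis) against the mean log2 intensity over the 6 mock arrays (horizontal axis) for 32627 loci; dotted lines mark 2-fold. The 35 loci that were over 2-fold lower in sid2 in all 3 pairs (red) outnumber the 2 that were over 2-fold higher in all 3 pairs (green), and PR1, SID2 and BG3 lie below the other loci.

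Genes of SA synthesis other than SID2 were close to their Col levels. Of the 5 genes of this list, which includes SID2, 3 were lower in sid2 in all 3 pairs (SID2, EDS5 and EPS1). In the list 1 gene was higher in all 3 pairs, and the median difference was −0.04. Over all loci 18.7% were lower and 17.1% higher in all 3 pairs, the background for this list and those below. ICS2, the second isochorismate synthase gene of Arabidopsis, averaged 9.87 ± 0.40 in sid2 and 9.53 ± 0.37 in Col (SD, n = 3 each), a difference of 0.34 ± 0.16 (SE, adjusted p 0.526, higher in 3 of 3 pairs). EDS5, which exports isochorismate from the plastid, differed by −0.04 ± 0.18, and PBS3, which couples it to glutamate, by 0.05 ± 0.15. EPS1 gave −0.275 ± 0.22 (adjusted p 0.654) with overlapping groups. Of 10 regulators of SA synthesis, 3 were lower and 1 was higher in all 3 pairs. NDR1, a membrane protein needed for signaling by several resistance proteins, was at 7.97, 8.53 and 7.63 in sid2, against 8.51, 9.87 and 8.49 in Col. These arrays overlapped between the groups because replicate 2 was high in both, while each pair showed a lower level in sid2 (−0.91 ± 0.27, adjusted p 0.468). SARD1, a transcription factor that activates SID2, gave −0.72 ± 0.23 (adjusted p 0.468), again in 3 of 3 pairs with overlapping groups. PAD4, a lipase-like partner of EDS1, gave −0.40 ± 0.20, and EDS1 itself −0.00 ± 0.27 (adjusted p 0.535 and 0.997).

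Among 9 genes of SA turnover, 3 were over 2-fold lower in sid2 in all 3 pairs: DMR6, DLO1 and UGT76B1. Of all loci 0.107% met this limit. DMR6, an SA 5-hydroxylase, was at 10.28, 10.06 and 10.15 in sid2, against 11.74, 11.26 and 11.28 in Col. The spread within each group was small and the groups lay apart, with a difference of −1.26 ± 0.11 (adjusted p 0.0715). AT4G10500 (DLO1), the SA 3-hydroxylase, was at 5.88, 5.64 and 5.95 in sid2, against 8.21, 7.22 and 7.98 in Col, a difference of −1.98 ± 0.19 (adjusted p 0.0715). UGT76B1, a glucosyltransferase acting on SA and related defence compounds, was at 5.43, 4.55 and 5.14 in sid2, against 6.65, 6.66 and 7.07 in Col. It differed by −1.75 ± 0.19 (adjusted p 0.121), and its groups did not overlap either. DLO2 (AT4G10490), a relative of DLO1, was dim in both groups, at 3.46 in sid2 and 3.58 in Col. The SA glucosyltransferase genes UGT74F1 and UGT74F2 differed by 0.16 and −0.12, and the methyltransferase gene BSMT1 by 0.63 ± 0.55, with groups that overlapped. In all, 5 of the 9 genes (55.6%) were lower and 2 (22.2%) higher in sid2 in all 3 pairs, against 18.7% and 17.1% of all loci. The 0 calls among them stand beside 0.00306% called of all loci. The list's median was −0.12, and −0.03 when 32 was added to the intensities before the logarithm.

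Most genes of SA perception differed little between sid2 and Col. NPR1, the transcriptional coactivator that binds SA, gave −0.15 ± 0.09, and its relatives NPR3 and NPR4 gave −0.03 and −0.04. Another relative, NPR2 (AT4G26120), gave −0.33 ± 0.18 and was lower in 3 of 3 pairs (adjusted p 0.561). The TGA genes TGA1 to TGA6 differed by −0.01 to 0.26. NIMIN1, a small protein that binds NPR1 and restrains PR1, was at 4.36, 4.22 and 4.44 in sid2, against 5.63, 5.88 and 5.58 in Col. Its sid2 level was close to the lower quartile of the arrays and all 3 sid2 arrays were below the Col arrays, with a difference of −1.36 ± 0.11 (adjusted p 0.0715). GRX480, a glutaredoxin that binds TGA factors, was at 5.50, 6.27 and 6.49 in sid2, against 6.69, 9.23 and 7.85 in Col. Col replicate 2 was far above the other Col arrays, and the difference of −1.84 ± 0.44 had an adjusted p of 0.439. Of 14 measured genes, 4 (28.6%) were lower and 2 (14.3%) higher in all 3 pairs, against 18.7% and 17.1% of all loci. The median was −0.02.

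PR and related genes held the largest differences, carried by few members. Besides PR1, BG3, a β-1,3-glucanase gene, was at 5.73, 8.03 and 5.62 in sid2, against 8.82, 11.52 and 9.50 in Col. Replicate 2 was the highest array in both groups, and the pairs differed by −3.09, −3.50 and −3.89 (mean −3.49 ± 0.52, adjusted p 0.297). A fixed block for the replicate, which removes such shared shifts, gave BG3 an adjusted p of 0.0175, against 0.992 with no block, 0.615 with all 12 arrays and 0.303 with 11 arrays. PR5, a thaumatin-like protein gene, averaged 12.41 in sid2 and 12.86 in Col (−0.45 ± 0.11, adjusted p 0.439, lower in 3 of 3 pairs). PR2, listed as BGL2, averaged 9.92 in sid2 and 10.66 in Col, and was lower in 2 of 3 pairs (−0.73 ± 0.22, adjusted p 0.468). The jasmonate-responsive members PR3 (listed as HCHIB) and PR4 gave −0.06 and −0.02, and the defensin gene PDF1.2 gave −0.37 ± 0.43. Of the 10 genes, 5 (50%) were lower and 0 higher in all 3 pairs, against 18.7% and 17.1% of all loci, with a median of −0.31.

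Of 15 further marker genes of SA responses, 6 (40%) were lower and 0 higher in sid2 in all 3 pairs (median −0.30). The shares over all loci were 18.7% and 17.1%. ARD3, for a dioxygenase of the methionine salvage cycle, was at 4.78, 4.81 and 5.44 in sid2, against 6.57, 6.71 and 7.36 in Col. The pairs were almost the same distance apart, and the difference was −1.87 ± 0.16 (adjusted p 0.0715). LURP1, a gene first described by its late induction by an oomycete, was at 10.44, 9.14 and 11.16 in sid2, against 12.53, 12.45 and 12.14 in Col. Here the Col arrays were tight and the sid2 arrays spread widely, with an SD of 1.02 in sid2 and 0.21 in Col (difference −2.13 ± 0.41, adjusted p 0.385). PCC1 had a mean of 10.78 in sid2 and 12.68 in Col but was lower in only 2 of 3 pairs (−1.90 ± 0.84, adjusted p 0.515). The lectin gene LLP1 (AT5G03350) differed by −1.02 ± 0.26 and AED1 (AT5G10760), an apoplastic aspartyl protease gene, by −0.73 ± 0.14, each with groups apart. GSTF6 and GSTF7 had higher means in sid2 (0.57 and 0.42) and were lower in 2 of 3 pairs.

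WRKY transcription factors of group III include several regulators of SA responses. Of the 13 genes, 5 (38.5%) were lower and 1 (7.69%) was higher in all 3 pairs, against 18.7% and 17.1% of all loci. The median was −0.35. WRKY54, which acts with WRKY70 in SA signaling, was at 8.62, 7.91 and 8.35 in sid2, against 9.995, 10.46 and 9.55 in Col (−1.71 ± 0.25, adjusted p 0.297). WRKY70 itself averaged 10.84 in sid2 and 11.39 in Col (−0.55 ± 0.18, adjusted p 0.468, lower in 3 of 3 pairs), with groups that overlapped. WRKY38 was at 4.06, 3.44 and 3.76 in sid2, against 4.60, 4.62 and 5.06 in Col, and its sid2 arrays were below the arrays' lower quartile. The difference of −1.01 ± 0.17 (adjusted p 0.330) is therefore of uncertain size. WRKY62 averaged 4.47 in sid2 and 5.49 in Col, with groups apart (−1.02 ± 0.21, adjusted p 0.407). WRKY53 and WRKY46 gave −0.01 ± 0.35 and −0.37 ± 0.40. Outside this group, WRKY51, which takes part in the repression of jasmonate responses by SA, was at 5.19, 5.01 and 5.25 in sid2, against 6.75, 6.63 and 7.01 in Col. The arrays of each group were tight (SD 0.12 in sid2 and 0.20 in Col), and the difference of −1.64 ± 0.10 had the second smallest p of all loci (adjusted p 0.0168). WRKY51 was called when arrays were weighted by quality (adjusted p 0.0045), but its adjusted p was 0.248 with no block, 0.640 with all 12 arrays and 0.0624 with 11 arrays, and without single arrays it lay between 0.0478 and 0.281. WRKY58 was at 7.66, 7.77 and 7.14 in sid2, against 9.05, 9.04 and 8.68 in Col (−1.40 ± 0.13, adjusted p 0.0715).

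Cysteine-rich receptor-like kinases, a family with many members induced by SA, showed small differences that mostly pointed down in sid2. Of 14 genes, 8 (57.1%) were lower and 2 (14.3%) were higher in all 3 pairs, against 18.7% and 17.1% of all loci. The median was −0.25, and the differences ran from −0.88 for CRK5 to 0.34 for CRK19. CRK6 was at 10.48, 10.94 and 10.57 in sid2, against 11.49, 11.74 and 11.18 in Col (−0.81 ± 0.13, adjusted p 0.322). Its sid2 arrays all lay below the Col arrays, which held for 1 of the 14 genes and for 5.68% of all loci. CRK5 gave −0.88 ± 0.20 (adjusted p 0.434) with overlapping groups. These genes form clusters of similar copies, and whether the probes separate them is not given in the sources used here.

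**Figure D3:**
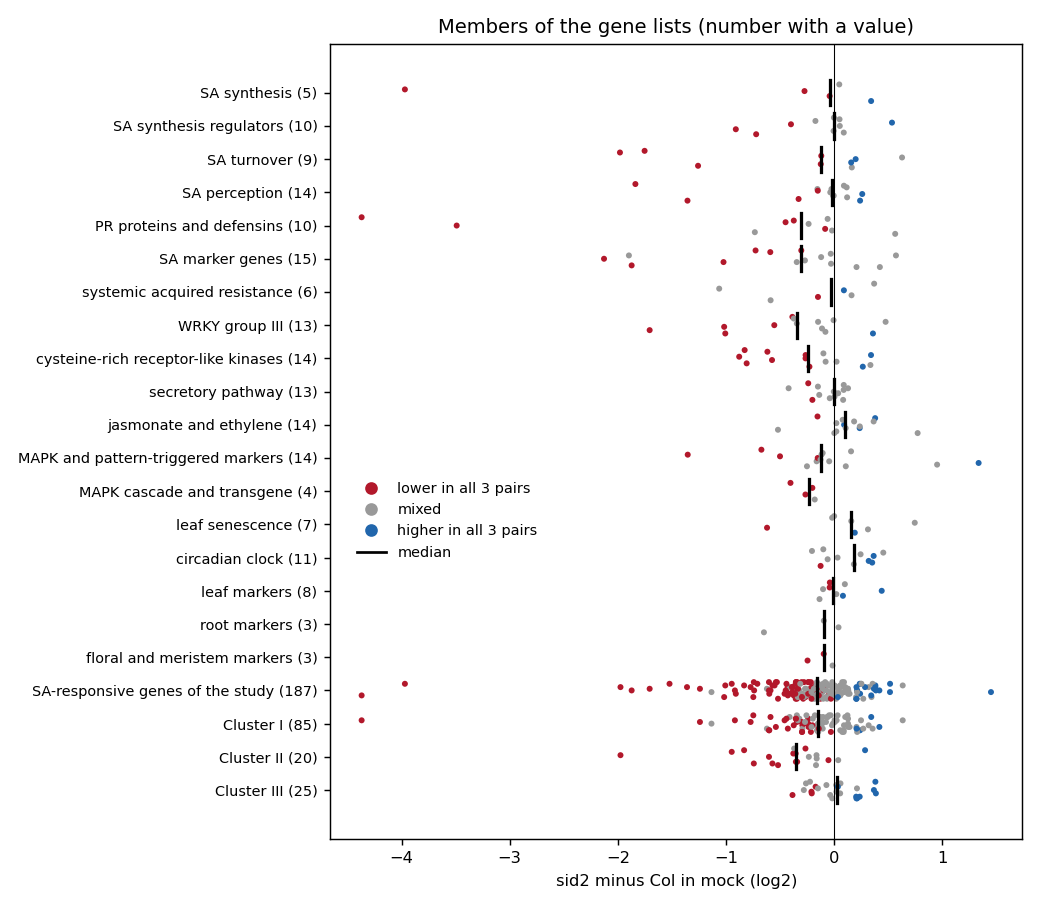
Difference between sid2 and Col in mock leaves (log2) for the members of 22 gene lists, 1 row a list, with the number of members that had a value; red members were lower and blue members higher in sid2 in all 3 pairs, and black lines are list medians. The lists of SA turnover, PR proteins, SA marker genes and WRKY group III have long tails to the left, while their medians lie between −0.12 and −0.35.

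The remaining loci among the 35 were named after their values were seen. AT2G44380 was at 7.11, 7.48 and 7.32 in sid2, against 9.37, 8.97 and 9.54 in Col (−1.99 ± 0.16, adjusted p 0.0715). AT2G44390, 2 places away in locus order, gave −1.66 ± 0.18 (adjusted p 0.121). AT5G42830 was at 7.26, 7.63 and 7.40 in sid2, against 8.98, 8.77 and 8.60 in Col (−1.35 ± 0.13, adjusted p 0.0715). The metacaspase gene MC2 (AT4G25110), whose protein restrains cell death, gave −1.63 ± 0.24, and the dehydrogenase gene SDR3 −1.74 ± 0.20 (adjusted p 0.297 and 0.130). IOS1, a receptor-like kinase named for impaired oomycete susceptibility, gave −1.73 ± 0.44 (adjusted p 0.439) with overlapping groups, since replicate 2 was high and replicate 3 low in both. PCR1, named for cadmium resistance, was at 9.97, 11.32 and 9.10 in sid2, against 11.94, 12.78 and 11.60 in Col (−1.98 ± 0.37, adjusted p 0.371).

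Several of these loci were neighbours. In locus order, 13 of the 35 lay within 10 places of another of the 35. PCR1 stood next to PCR2 (−1.45 ± 0.33), AT1G51790 (−1.89 ± 0.51) stood next to IOS1, AT1G51860 (−1.19 ± 0.23) was 9 places from IOS1, ARD3 was 4 places from AT2G26440 (−1.36 ± 0.34), and AT4G25070 (−1.81 ± 0.18) was 4 places from MC2. Some of these neighbours are members of the same gene family, and shared hybridisation between similar copies was not tested.

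The adjacent locus of SID2 also differed. TRZ1 (AT1G74700), which encodes a tRNase Z that trims the 3′ end of tRNA precursors, lies beside SID2 and was at 6.53, 6.66 and 6.41 in sid2, against 8.61, 7.80 and 8.96 in Col. The groups did not overlap, and the difference was −1.93 ± 0.25 (adjusted p 0.226). The other 9 loci within 5 places of SID2 differed by −0.19 to 0.43, and the 49 others within 25 places by −0.53 to 0.46. In leaves given DEX, TRZ1 differed by −2.48 and −2.39 in pairs 1 and 3 and by −0.17 in pair 2. Whether the TRZ1 probes also take up SID2 transcripts, or whether the mutation touches TRZ1, was not tested.

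**Figure D4:**
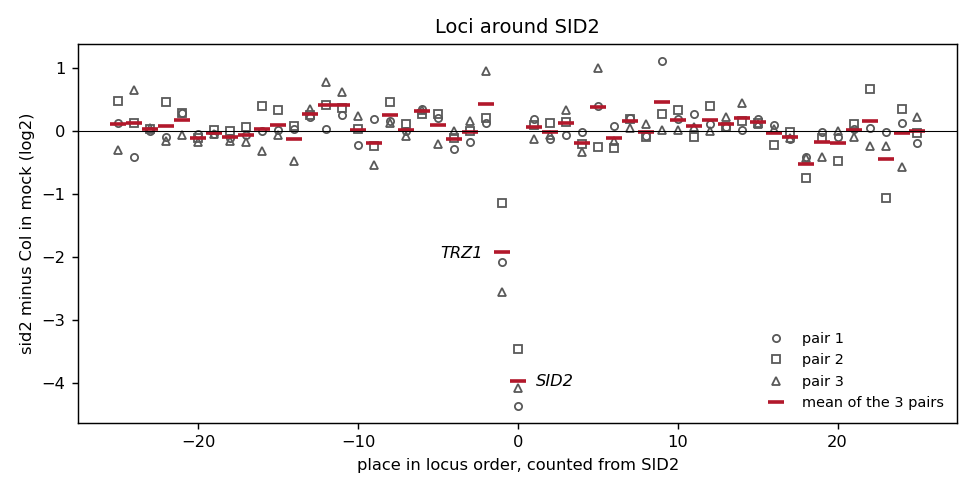
Difference between sid2 and Col in mock leaves (log2) for SID2 and the 25 loci on either side in locus order; open symbols are the 3 pairs and red bars their means. SID2 at −3.97 and the adjacent TRZ1 at −1.93 stand apart, and the other 49 loci have means between −0.53 and 0.46.

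Differences over 2-fold towards a higher level in sid2 were fewer. AT5G24240 was at 8.26, 9.98 and 7.38 in sid2, against 4.86, 7.11 and 4.59 in Col. All sid2 arrays were above all Col arrays, and the difference of 3.02 ± 0.51 was the largest in this direction (adjusted p 0.334). Its adjusted p was 0.0175 with the replicate as a fixed block, 0.992 with no block, 0.662 with all 12 arrays and 0.610 with 11 arrays. The second locus over 2-fold higher in all 3 pairs was AT2G29220, for an L-type lectin receptor kinase, at 4.74, 6.82 and 5.32 in sid2, against 3.49, 5.46 and 3.73 in Col (1.40 ± 0.40, adjusted p 0.467). Both were singled out by these values. The 10 loci with the smallest p among those higher in all 3 pairs differed by 0.47 to 0.83, and their adjusted p was 0.164 to 0.334. They included HEI10, a meiotic crossover factor (0.83 ± 0.14), the ubiquitin ligase gene RGLG3 (0.75 ± 0.11), TOZ (0.69 ± 0.11) and AT5G63630 (0.62 ± 0.08), none of them called. AT5G63630 was at 10.87, 10.95 and 11.02 in sid2, against 10.29, 10.38 and 10.33 in Col, which gave it the smallest p in this direction.

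Lists of jasmonate and ethylene, secretory pathway, clock, senescence and systemic acquired resistance genes held 0 members over 2-fold lower in sid2 in all 3 pairs. This limit was met by 0.107% of all loci, so a count of 0 in lists this small tells little. Of 14 jasmonate and ethylene genes, 1 was lower and 3 were higher in sid2 in all 3 pairs, and the median was 0.10. AOC1, an enzyme of jasmonate synthesis, gave 0.38 ± 0.17 (adjusted p 0.521), and VSP2, a jasmonate marker, 0.77 ± 0.81 with overlapping groups. Of 13 measured genes of the secretory pathway, which SA induces before PR proteins are exported, 2 were lower and 0 higher, and the differences ran from −0.42 for BIP3 to 0.13. Of 11 clock genes, 1 was lower and 3 were higher (median 0.18), with CCA1 at 0.35 ± 0.11 and PRR9 at 0.36 ± 0.13 (adjusted p 0.468 and 0.487). Of 7 senescence genes, 1 was lower and 1 higher, and of 6 genes of systemic acquired resistance likewise 1 each. ALD1, an enzyme of pipecolate synthesis, was at 4.40, 5.92 and 4.83 in sid2, against 6.72, 5.89 and 5.75 in Col, lower in 2 of 3 pairs (−1.06 ± 0.40, adjusted p 0.488).

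A few genes of the MAP kinase cascade were examined because both groups carried the uninduced transgene. MKK4, whose value does not separate transgene from endogenous transcripts, averaged 12.01 in sid2 and 12.19 in Col (−0.18 ± 0.15, adjusted p 0.660, lower in 2 of 3 pairs). MPK4 gave −0.40 ± 0.08 and MPK6 −0.20 ± 0.08, each with groups apart (adjusted p 0.375 and 0.493). With MKK5 this list had 4 genes, which differed by −0.40 to −0.18. Of them 3 (75%) were lower and 0 higher in all 3 pairs, against 18.7% and 17.1% of all loci. None of the 4 was called, and MPK3 and MPK11 were placed in the list that follows. The share therefore does not describe MAP kinase genes in general. Of 14 markers of MAP kinase and pattern-triggered signaling, 4 were lower and 1 was higher in all 3 pairs. MPK11 was at 7.57, 8.55 and 7.92 in sid2, against 9.03, 10.27 and 8.81 in Col (−1.35 ± 0.27, adjusted p 0.406). CYP71A13, an enzyme of camalexin synthesis, was at 9.83, 8.91 and 8.90 in sid2, against 6.70, 8.10 and 8.83 in Col. Its groups did not overlap, but the pairs ranged from 3.13 to 0.07, and the mean of 1.33 ± 0.52 had an adjusted p of 0.492. FRK1, a marker of MPK3 and MPK6 activity, gave −0.50 ± 0.41.

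The 187 SA-responsive genes of the study, selected on other arrays from infected plants, were then described. In mock leaves 79 of them (42.2%) were lower in sid2 in all 3 pairs and 17 (9.09%) were higher, against 18.7% and 17.1% of all loci. All sid2 arrays lay below all Col arrays for 36 genes and above them for 5, where the shares over all loci were 5.68% and 4.48%. The median of the list was −0.16, beside −0.01 over all loci, and SID2 was the single gene called. Over 2-fold lower levels in all 3 pairs were found for 7 of the 187, which is 3.74% of this list, against 0.107% of all loci. The 7 genes are 20% of the 35 loci. They were SID2, PR1, PCR1, ARD3, WRKY54, AT2G43140 (−1.52 ± 0.36) and AT3G07195 (−1.36 ± 0.21). The study also sorted genes of this list into clusters, partly by DEX/mock ratios in sid2 from these arrays, so the counts in a cluster are not independent evidence. Of the 85 genes of Cluster I, which holds PR1, 29 were lower and 4 were higher in all 3 pairs (median −0.15). Of the 20 genes of Cluster II, 13 were lower and 1 was higher (median −0.36), and of the 25 genes of Cluster III 4 were lower and 8 were higher (median 0.02).

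The sid2 and Col leaves given DEX provided a measurement of the same loci on arrays that the mock comparison did not use. The array labelled Col DEX replicate 2 went against its label: its SID2 level was 6.08, against 12.48 and 12.26 in Col DEX replicates 1 and 3 and 6.01 to 6.21 in the sid2 DEX arrays. Values are therefore given for each pair. Of the 35 loci over 2-fold lower in sid2 mock, 32 (91.4%) were lower in sid2 DEX in both pairs 1 and 3, against 29.6% of all loci, and 22 (62.9%) were over 2-fold lower in both, against 0.463% of all loci. Without SID2 these counts were 31 and 21 of 34. The median difference of the 34 was −1.50 and −1.63 in pairs 1 and 3 and −0.12 in pair 2. With all 3 pairs, 24 of the 35 (68.6%) were lower in sid2 DEX, against 20.7% of all loci.

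The 35 loci did not keep the same order of sizes with DEX. ARD3 differed by −5.08 and −5.19 in DEX pairs 1 and 3, against −1.87 in mock, and WRKY54 by −5.97 and −5.48, against −1.71 in mock. DMR6 (−3.97 and −3.88) and NIMIN1 (−3.39 and −3.31) were likewise further apart with DEX than in mock. PR1 went the other way, with −0.78 in both pairs 1 and 3 and 0.03 in pair 2, against −4.37 in mock. With DEX it stood high in both groups, at 13.04, 13.30 and 13.18 in sid2 and 13.81, 13.27 and 13.96 in Col. Whether differences are compressed at such intensities was not tested. AT2G44380 gave −0.61 and 0.23 in pairs 1 and 3. Its levels with DEX were 3.77 to 4.16 in sid2 and 3.78 to 4.52 in Col. These are near the lower quartile of the mock arrays (4.15 to 4.19), so a difference could hardly show. AT5G24240, the locus with the highest difference in mock, gave 0.77 and 3.40 in DEX pairs 1 and 3, the same sign as in mock. In pair 2, which rests on the Col DEX array that goes against its label, it gave −2.40. The difference between the sid2 effect in DEX and the sid2 effect in mock was tested in limma as an interaction, and 0 of 32627 loci were called with all 12 arrays, with 734 at an unadjusted p under 0.05. For PR1 this difference was 3.86 (adjusted p 0.226). When the doubtful Col DEX array of replicate 2 was left out, 3 loci were called, all with a larger deficit in sid2 with DEX, and DMR6 and ARD3 were among them. NIMIN1 and WRKY54 were not called in that fit either (adjusted p 0.0129 and 0.0195 for the interaction).

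**Figure D5:**
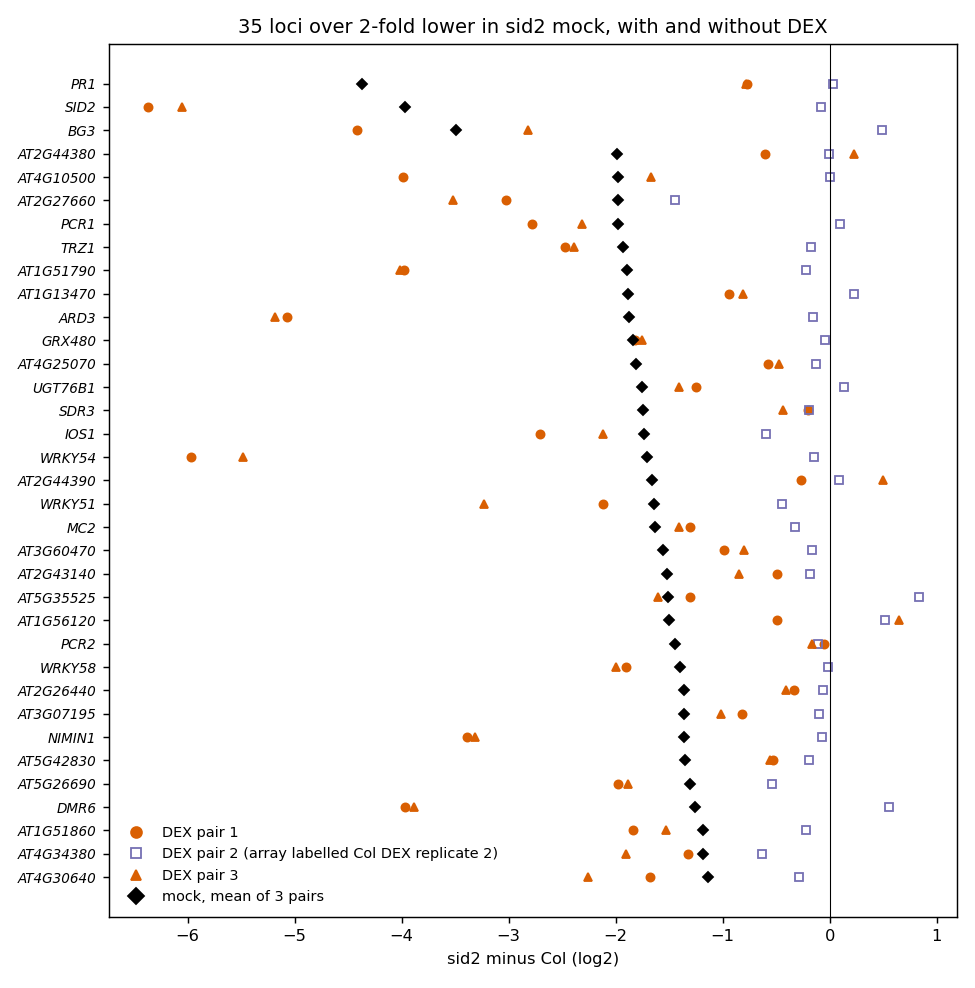
Difference between sid2 and Col (log2) for the 35 loci that were over 2-fold lower in sid2 mock in all 3 pairs: black diamonds are the mock means, filled orange symbols DEX pairs 1 and 3, and open squares DEX pair 2, which rests on the Col DEX array that goes against its label. The squares cluster near 0 (median −0.10), while ARD3, WRKY54, NIMIN1 and DMR6 lie further left with DEX than in mock and PR1 lies nearer to 0.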

How the data were processed

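Total RNA from leaves was labelled with Cy3 and hybridised to NimbleGen 1-colour arrays designed on the TAIR9 annotation, 1 sample an array. The deposited values were intensities that the authors had summarised by RMA, on the linear scale, with the transcript of higher value standing for its gene. Each of 32627 loci had a value on each array. Probe values and background were not used here, and whether the arrays were normalized with others is not given in the sources used here. RMA makes array distributions alike, so a change in total RNA would not show.

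The intensities were converted to log2. The 6 mock arrays were fitted with limma 3.58.1 in R 4.3.3 (lmFit, eBayes), with the replicate number as a random block (duplicateCorrelation, statmod 1.5.0, correlation 0.495), following the model in the methods. Benjamini-Hochberg adjusted p-values were taken over the full set of loci, in place of the q-values of the study. Errors are SE of the fit (residual 4 and prior 2.65 degrees of freedom) or SD where stated. The labels give the same replicate numbers in each group and the methods describe independent experiments. Deviations from the group means correlated at 0.563, 0.733 and 0.623 between same-numbered arrays, so equal numbers were treated as pairs. Between other arrays the values were −0.538 to −0.0126. Deviations from a mean cancel out within a group, so these negative values give no separate support for the pairing. The interaction was fitted to all 12 arrays and to 11, leaving out Col DEX replicate 2.

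Genes were named by rule: SID2 and PR1, called genes, up to 10 loci a direction with the smallest p and the same sign in all pairs, the members of each list with an adjusted p under 0.05 or otherwise the 2 with the smallest p, and 5 loci on each side of SID2. Other genes were chosen after their values were seen. The lists and the genes in them were chosen with earlier results of these data known. The locus lists of the study were used, none of its values. Symbols came from RefSeq (TAIR10.1), in which 31993 loci (98.1%) were found; no coordinates are given. The alternatives were other blocks, arrays, scalings, offsets, filters, tests and limits, and leaving out arrays or pairs.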

Additional observations from a re-analysis of the deposited data

Results flagged for a closer look

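The groups held 3 arrays each, too few for a test of outlying arrays. The sid2 effect differed between DEX and mock for 3 loci when the array labelled Col DEX replicate 2 was left out, by the interaction term in limma. The difference was −2.67 ± 0.20 (SE) for DMR6 (adjusted p 0.0055), −3.23 ± 0.28 for ARD3 (adjusted p 0.006) and −1.57 ± 0.14 for AT5G41280 (adjusted p 0.006). With all 12 arrays the values were −1.17 for DMR6, −1.60 for ARD3 and −0.91 for AT5G41280, and none was called (adjusted p 1 each). AT5G41280 was dim in mock leaves, at 3.56 in sid2 and 3.70 in Col.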

How the results depend on the processing

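The 1 call became 0 with the replicate block as a fixed term, with no replicate block, with 32 added to the intensities and with limma's treat, and 2 with 11 arrays, with array quality weights and at an adjusted p under 0.05 with no fold limit. Leaving out single arrays or pairs gave 0 to 1 called genes. For SID2 the difference stayed at −3.97 with the replicate block as a fixed term (adjusted p 0.0175), with no replicate block (0.0134), with treat (0.0121) and with all 12 arrays (0.615), and was −3.47 with the offset of 32 (0.0371), none of them called. With 11 arrays, leaving out the array labelled Col DEX replicate 2, SID2 was called (−3.97, adjusted p 8.9e-06). The SE of the SID2 difference was 1.19 with all 12 arrays and 0.15 with 11. Without single arrays or pairs this difference was −4.22 to −3.77. PR1, at −4.37, was called with all 12 arrays and with 11, and gave −5.10 to −3.89 without single arrays or pairs. With the offset of 32 it gave −3.45 (adjusted p 0.209). The interaction had 0 called genes, 3 without the array labelled Col DEX replicate 2 and 0 without any other single array. The correlation of the 6 arrays was kept in the fits to 2 pairs, which give none.

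Of 1252 values over alternatives for the other 57 named genes, 1233 kept their sign. The 19 others belonged to 7 genes: without single arrays or pairs ERF1 ranged from −0.881 to 0.0189, NAP from −0.0048 to 0.36, SCR from −0.192 to 0.0208 (0.0184 with array weights), MIF1 from −0.0358 to 0.24, AT1G74680 from −0.20 to 0.12, QKY from −0.0219 to 0.14 and AT1G74730 from −0.102 to 0.0278. With scalings chosen after seeing the data, the 35 and 2 loci became 34 and 2 with a common median, 36 and 2 with quantile normalization and 22 and 1 with the offset. No background level was used, so differences that involve levels near the lower quartile have an uncertain size.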

Other observations

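The same-numbered arrays of sid2 and Col shared shifts that the genotype does not describe. FRK1, SAG21 and BG3 were examples named after their values were seen: replicate 2 was the highest of 3 arrays in both groups for each of them. SAG21, a gene induced by senescence and oxidative stress, was at 9.46, 10.76 and 10.13 in sid2 replicates 1, 2 and 3, against 9.61, 11.55 and 11.06 in Col. Across all loci the sid2 minus Col differences of the 3 pairs correlated weakly with each other, at a Pearson's r of 0.175, 0.205 and 0.252. These values describe loci of 3 pairs and carry no test.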
